A study of Mus musculus with 6 samples.

Results

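This account covers p53 and its classic target genes: Trp53, which encodes p53, and Mdm2, Cdkn1a, Ccng1, Bax, Bbc3, Phlda3, Sesn1, Zmat3 and Gdf15. The 10 genes were chosen by name, as a textbook set, with earlier results of these data known, though the rule itself uses no measured value. Of them, 9 were found by symbol among the 13405 genes listed for every library, and all 9 passed the filter on low values. Gdf15, a secreted stress cytokine, had no row and was not analysed here. The samples are 4T1 cells, a mouse mammary carcinoma line from the BALB/c strain, grown in culture. One group carried a vector control (3 libraries) and the other was an ATM KO, in which the gene of the ATM kinase had been knocked out (3 libraries). No drug, irradiation or time course is named in the labels, and both groups share only the 4T1 background. The labels do not give the vector, the guide or the allele. They also do not say whether the knockout was 1 clone or whether libraries came from separate cultures, so p-values cover only the spread among these libraries, and that may be technical.

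p53 is a transcription factor that is kept low by Mdm2, a ubiquitin ligase whose own gene p53 activates. After a DNA double-strand break, ATM phosphorylates p53 and Mdm2, p53 protein accumulates, and it switches on genes for cell cycle arrest, apoptosis, repair and metabolic restraint. Because this control acts on the protein, the Trp53 mRNA is not a measure of p53 activity, and the target mRNAs are the usual readout. 4T1 is generally described as a line with a mutated Trp53, and values per gene do not show sequence changes. The question asked of the 2 groups is how these mRNAs stand in cells without ATM when no damaging agent is named.

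p53 binds a pair of consensus decamers, each with the core C, 2 A/T bases and G. The stretches below are shown because they place each gene's match to that decamer within 250 bases before an annotated transcript start. They come from RefSeq promoter windows on GRCm38.p6, which run from 250 bases before to 50 bases after each start, and capitals mark the decamer.
Cdkn1a: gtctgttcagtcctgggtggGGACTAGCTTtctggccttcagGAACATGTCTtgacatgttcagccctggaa
Trp53: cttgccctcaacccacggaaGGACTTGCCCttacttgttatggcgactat
Mdm2: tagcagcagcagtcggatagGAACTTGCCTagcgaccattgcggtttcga
Ccng1: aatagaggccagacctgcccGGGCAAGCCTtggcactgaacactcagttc
Bax: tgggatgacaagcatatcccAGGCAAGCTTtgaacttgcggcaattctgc
Sesn1: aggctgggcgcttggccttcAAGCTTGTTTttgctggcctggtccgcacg

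The Cdkn1a stretch lies at chr17:29090886-29090957 on the plus strand, in the upstream of the gene's 2 windows, and the Trp53 stretch at chr11:69580264-69580313, also on the plus strand. Those of Mdm2 (chr10:117710915-117710964), Ccng1 (chr11:40755442-40755491) and Bax (chr7:45467070-45467119) are on the minus strand, and that of Sesn1 (chr10:41887246-41887295) is on the plus strand, in the window of its downstream start. Only the Cdkn1a window also held the cores of 2 adjacent decamers, CATG and CATG with any 6 bases between them, starting 48 bases before the start site, and this motif overlaps the second decamer. Both motifs read the same on either strand. Of the 12 windows of the 8 genes that had one, 6 held the decamer, and of all 32851 windows 2745 (8.36%) did. The core pair was in 0.712% of all windows. Phlda3 and Bbc3 had only windows without a match, and the other window of Cdkn1a and that of Sesn1 held none either. Of the 3 Bbc3 windows only the last overlaps the one before it, and Zmat3 had no entry. A match is a run of letters and was not tested for binding.

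Library depth over the listed genes ran from 22494919 to 32341508 reads. Of the 9 genes, Bbc3 had the fewest reads, 142 in vector control 1, where counting alone gives an error of 8.39%. Atm mRNA was 1978, 1613 and 1519 normalised counts across the vector controls, and the knockout libraries read 1959, 2220 and 1591, so its level per gene does not check the labels. Vector control 1 and ATM KO 2 stood apart from the rest on the first principal component (59.4% of the variance), at -86.2 and -41.5, against 3.19 for ATM KO 1 and between 36.9 and 50.7 for the other 3 libraries. Vector controls 2 and 3 were close to each other, by at most 1.14-fold in any of the 9 genes, so much of the control spread is vector control 1 set against a near-identical pair. Epithelial markers were abundant, with Cdh1 between 16607 and 18627 in every library and a summed level of 8 markers from 80526 to 115328 (controls) and from 101687 to 138595 (ATM KO), and the basal keratin Krt5 at 0 throughout. The single markers varied: Epcam stood at 6116, 17513 and 17180 in controls, and Krt19 at 2913, 14139 and 13871. Another basal keratin gene, Krt14, stood at 149.9, 684 and 654 in controls and 2223, 1370 and 2311 with ATM KO, without overlap (4.71-fold, limma unadjusted p = 0.00977, adjusted 0.999). Its adjusted p was 0.0641 by DESeq2 and 0.0452 by limma with 1 surrogate variable, which called 0.148% of all genes. Of the 8 immune markers, 3 were listed (Cd68, Csf1r and Cd14), with summed levels from 943 to 1922 (controls) and from 1152 to 2667 (ATM KO). Csf1r, a macrophage receptor gene, did not overlap between groups, at 229, 378 and 387 in controls and 968, 438 and 1119 with ATM KO (2.42-fold, limma unadjusted p = 0.0209, adjusted 0.999). Cd68 stood at 301, 1001 and 1080 in controls and 806, 264 and 227 with ATM KO. The pan-leukocyte marker Ptprc was not listed. The part of these markers in the results was not tested. Of 5 endothelial markers only Cdh5 was listed, at most at 11.7 and at 0 in ATM KO 3, and of 7 fibroblast markers 3 were listed, with sums from 146 to 547 (controls) and from 344 to 754 (ATM KO).

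Across p53 and its targets, Phlda3 was the one gene whose ATM KO libraries all stood above the controls, and Ccng1 the one whose ATM KO libraries all lay below them. The other 7, Cdkn1a and Trp53 among them, overlapped. In bulk RNA, fewer cells with an mRNA and less of it per cell cannot be told apart. No gene of the 9 passed limma adjusted over all 12149 genes tested (0 of 9, with 1 at an unadjusted p under 0.05), and limma called 0% of all genes (505, or 4.16%, at an unadjusted p under 0.05). edgeR also called 0 of the 9 and 0% of all genes (1 of the 9 and 522 of all genes, or 4.3%, at an unadjusted p under 0.05). DESeq2 on the recovered reads called 1 of the 9, Phlda3, against 0.691% of all genes (0.56% higher with ATM KO and 0.132% lower), and 1 of the 9 against 5.9% of all genes had an unadjusted p under 0.05. With 1 surrogate variable in the model limma called 0 of the 9 and 0.148% of all genes, 0.123% higher and 0.0247% lower. In that model Phlda3, Sesn1 and Ccng1 had an unadjusted p under 0.05 (0.000761, 0.00292 and 0.00767), as had 20.1% of all genes. Groups that did not overlap were found for 2 of the 9 genes and for 11.2% of all genes tested. Of the 9 genes 1 was higher (5.7% of all genes) and 1 lower (5.48%). The median log2 fold change of the 9 was 0.01, with 5 positive and 4 negative, and over all genes tested the median was -0.01 with 48.6% positive. Values are normalised read counts, and a log2 difference is the mean log2(value + 1) of the knockout libraries less that of the controls.

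**Figure D1:**
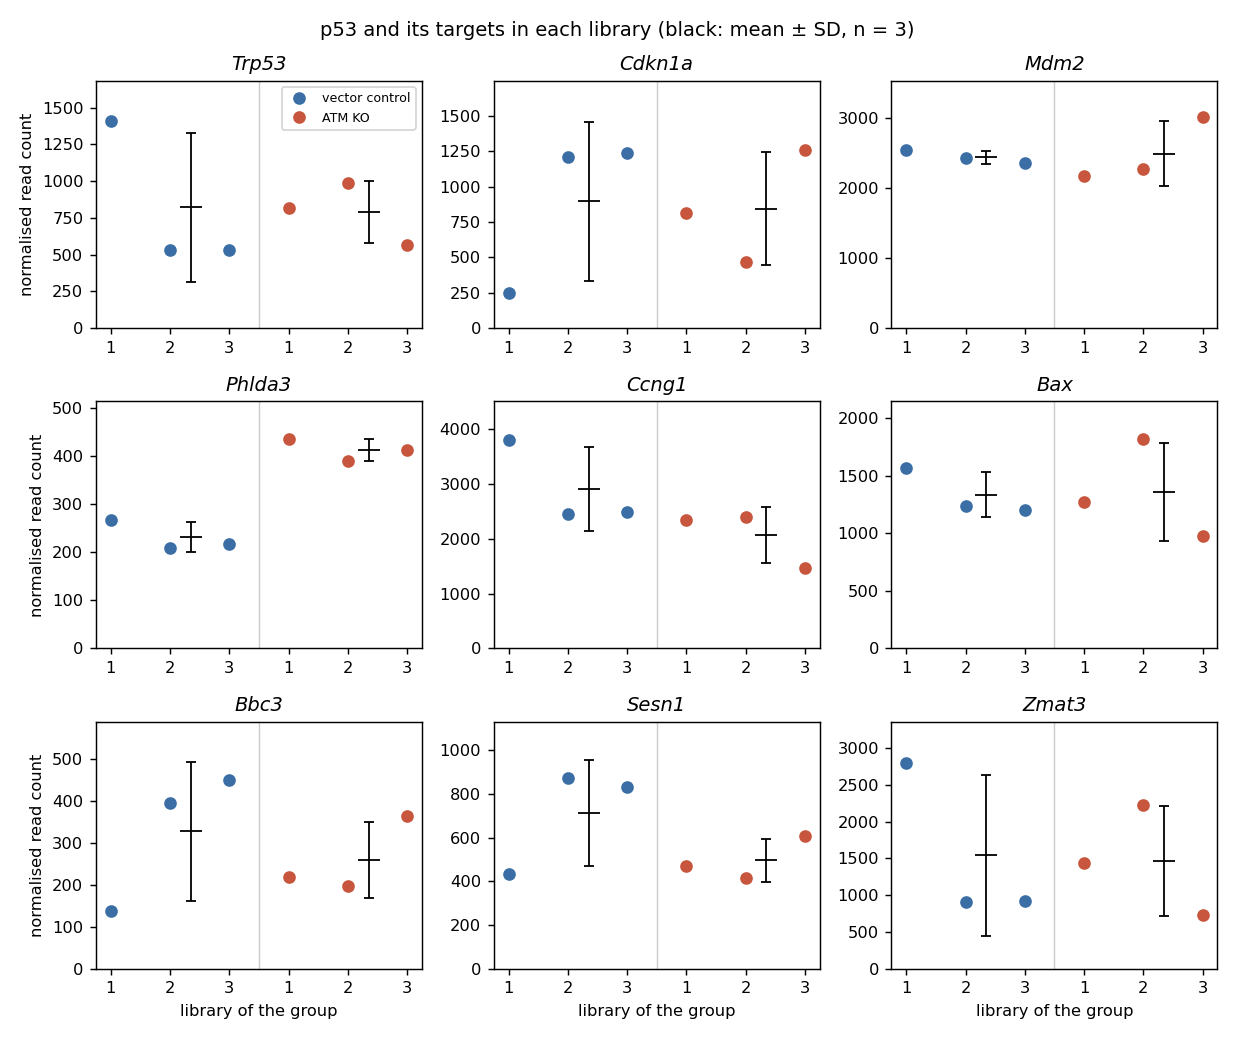
Normalised read count (linear axis from 0) of Trp53 and 8 targets in each library, blue for vector control and red for ATM KO, with the group mean ± SD (n = 3) in black. Phlda3 separates the groups (209 to 267 against 390 to 435), while in Cdkn1a, Bbc3, Zmat3 and Trp53 vector control 1 stands alone among the controls.

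Values are given in the order of the replicate numbers, 1 to 3. Trp53 (ENSMUSG00000059552, chromosome 11, 69580359 to 69591873, plus strand, GRCm38) stood at 1408, 529 and 528 in the vector controls and at 817, 989 and 568 in the ATM KO libraries. One control was the highest of the 6 libraries and the other controls were the lowest, with all knockout libraries in between. The means were 822 ± 508 and 791 ± 212 (SD, n = 3 each), a log2 difference of 0.07 (SE 0.44, limma adjusted p = 0.999) with a 95% interval from -0.99 to 1.14. Within the controls alone the range was 2.66-fold. Without vector control 1 the log2 difference was 0.54, and all 3 ATM KO libraries then lay above both controls. A processed pseudogene, Trp53-ps on chromosome 17, shares 1170 bases at 94.957% identity with the Trp53 transcript, so some Trp53 reads could have been lost or shared.

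Mdm2 (chromosome 10, 117688875 to 117710758, minus strand), the ubiquitin ligase that targets p53 and a p53 target itself, was the steadiest of the 9 in the controls. It stood at 2546, 2435 and 2361 in vector controls and at 2180, 2279 and 3025 in ATM KO cells. ATM KO 3 was the highest library and ATM KO 1 the lowest, so the knockout libraries enclosed the controls. The log2 difference was 0.01 (SE 0.17, limma adjusted p = 0.999), with a 95% interval from 0.756-fold to 1.35-fold. Mdm2 did not follow the split between vector control 1 and the other controls (1.06-fold).

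Cdkn1a (chromosome 17, 29090976 to 29100727, plus strand) encodes p21, the inhibitor of cyclin-dependent kinases that carries out p53-driven arrest. It stood at 247, 1208 and 1236 in the vector controls and at 813, 464 and 1258 in the ATM KO libraries. Vector control 1 was the lowest library and ATM KO 2 the next, and the remaining controls were level with ATM KO 3. The means were 897 ± 563 and 845 ± 398, a log2 difference of 0.12 (SE 0.71, limma adjusted p = 0.999) with a 95% interval from -1.58 to 1.82. The control range of 4.98-fold was far wider than the group difference. Its direction turned without vector control 1, to -0.65, and without ATM KO 3, to -0.22, and the edgeR and DESeq2 estimates were -0.10 and -0.08. An annotated transcript of unknown kind on the other strand shares 273 bases (7.68%) of the Cdkn1a exons, and without stated strand use its reads cannot be told apart.

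Ccng1 (chromosome 11, 40748552 to 40755311, minus strand) encodes cyclin G1, which binds a protein phosphatase that acts on Mdm2. Its values were 3799, 2459 and 2480 in controls and 2340, 2393 and 1469 in ATM KO cells. Every knockout library lay below every control, but ATM KO 2 and vector control 2 were close. The log2 difference was -0.50 (SE 0.27), from 2912 ± 768 to 2067 ± 519. It missed the threshold by limma (unadjusted p = 0.116, adjusted 0.999) and by DESeq2 (adjusted p = 1.00). Its size came from the extremes of both groups, since it was -0.29 without vector control 1 and -0.27 without ATM KO 3.

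The apoptosis effectors of the set did not move together. Bax (chromosome 7, 45461697 to 45466898, minus strand), the pore-forming protein of the outer mitochondrial membrane, stood at 1566, 1241 and 1204 in controls and at 1273, 1822 and 980 in ATM KO cells. The knockout libraries held both the highest and the lowest value, and the log2 difference was -0.01 (SE 0.26, limma adjusted p = 0.999). A coding gene model, Gm45808, shares 192 bases (12.2%) of the Bax exons on the same strand.

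Bbc3 (chromosome 7, 16308393 to 16318205, plus strand) encodes PUMA, a BH3-only protein that frees Bax and its relatives to act. Its values were 138, 395 and 450 in controls and 218, 197 and 363 in ATM KO cells. As with Cdkn1a, vector control 1 was the lowest library and ATM KO 2 the lowest of its group. The log2 difference was -0.22 (SE 0.51, limma adjusted p = 0.999). Without vector control 1 it was -0.75, with all ATM KO libraries below both remaining controls, and without vector control 3 it was 0.10.

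Phlda3 (ENSMUSG00000041801, chromosome 1, 135766119 to 135769136, plus strand) encodes a small pleckstrin homology domain protein that competes with Akt for membrane lipids. It stood at 267, 209 and 216 in the vector controls and at 435, 390 and 412 in the ATM KO libraries. The groups did not overlap, and each was tight, with ranges of 1.27-fold in controls and 1.11-fold in ATM KO cells. The means were 231 ± 31.4 and 412 ± 22.1, a 1.79-fold difference (log2 0.84, SE 0.21), with a 95% interval from 1.27-fold to 2.53-fold. By limma the unadjusted p was 0.00562 and the adjusted p 0.999, and limma called 0 of the 12149 genes. By DESeq2 the log2 fold change was 0.84 (SE 0.21) with an adjusted p of 0.0122. That call was kept without vector control 1 (adjusted p = 0.000481) and lost when any other single library was left out (adjusted p of 0.105 without ATM KO 3, 0.219 without ATM KO 2, 0.650 without ATM KO 1 and 0.9999 or 0.9998 without vector control 2 or 3). The fold change itself moved little, between 0.77 and 0.96 by DESeq2. With 1 surrogate variable in the limma model it was 0.85 with an adjusted p of 0.0679.

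Sesn1 (chromosome 10, 41809935 to 41908424, plus strand) encodes sestrin 1, which restrains mTORC1 and supports antioxidant defence. Its values were 433, 873 and 832 in controls and 469, 415 and 607 in ATM KO cells. Vector control 1 lay within the range of the knockout libraries, while the other controls lay above all of them. The log2 difference was -0.47 (SE 0.33, limma adjusted p = 0.999). Without vector control 1 it was -0.80, and DESeq2 then gave an adjusted p of 0.0470, with limma at 0.252. Leaving out vector control 2 or 3 instead gave smaller log2 differences, -0.29 and -0.33.

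Zmat3 (chromosome 3, 32334792 to 32366014, minus strand) encodes an RNA-binding zinc finger protein that acts on splicing and mRNA stability. It stood at 2799, 904 and 915 in controls and at 1432, 2229 and 735 in ATM KO cells. Vector control 1 was the highest library and ATM KO 2 the next, the reverse of Cdkn1a. The log2 difference was 0.01 (SE 0.58, limma adjusted p = 0.999), against control and knockout ranges of 3.10-fold and 3.03-fold.

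**Figure D2:**
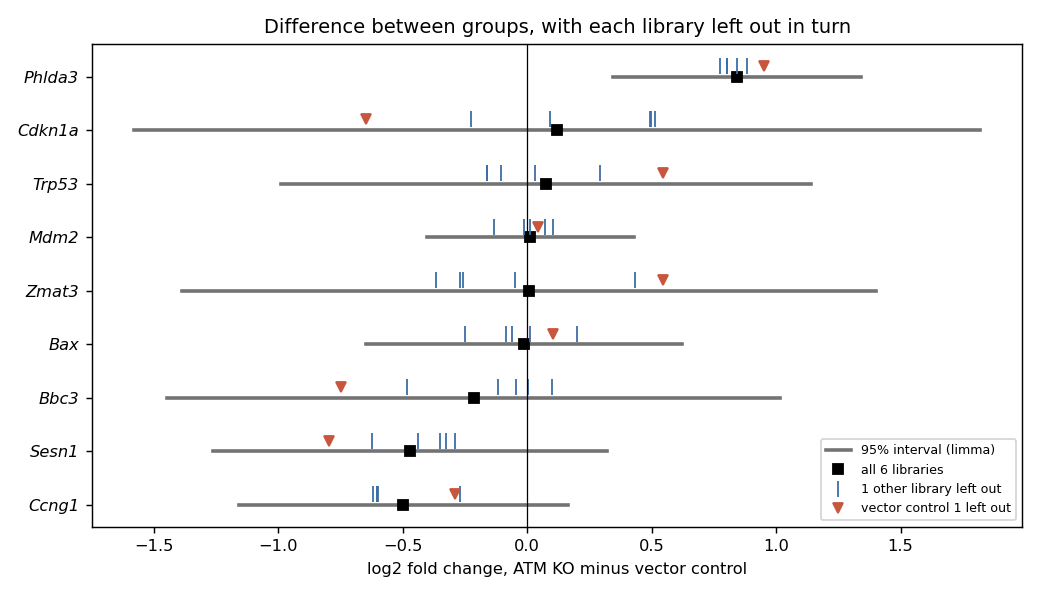
Log2 fold change (ATM KO minus vector control) of each gene with all 6 libraries (black squares) and its 95% limma interval (grey), with 1 library left out in turn (blue ticks, or red triangles for vector control 1). Phlda3 stays between 0.78 and 0.95, Sesn1 and Ccng1 stay negative, and the other 6 genes have values on both sides of 0.

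Most of the variation in these genes lay between libraries of the same group. In 8 of the 9 the range of the controls was wider than the difference between the groups, as in 83.4% of all genes tested, with Phlda3 the exception. Vector control 1 differed by over 2-fold from the mean of the other controls in 4 of the 9, against 28.7% of all genes. Trp53 (2.66-fold) and Zmat3 (3.08-fold) were higher in vector control 1, and Cdkn1a (4.93-fold) and Bbc3 (3.03-fold) were lower there. The same genes parted ATM KO 2 from ATM KO 3 in the same directions: Trp53 was 1.74-fold and Zmat3 3.03-fold higher in ATM KO 2, and Cdkn1a 2.71-fold and Bbc3 1.84-fold higher in ATM KO 3. So the libraries with the most Trp53 mRNA had the least Cdkn1a mRNA. These patterns were noticed in the data and have no test.

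Hypoxia targets were ordered much like Cdkn1a across libraries, and their part in its values was not tested. The summed level of the 12 hypoxia targets was 43262, 189281 and 187455 in the vector controls, and 105558, 59972 and 180441 with ATM KO. Their median deviation from the gene mean was -1.76 in vector control 1 and -0.98 in ATM KO 2, against 0.94 in both other controls, -0.10 in ATM KO 1 and 0.96 in ATM KO 3. Over the group contrast the list had 5 positive and 7 negative members and a median log2 fold change of -0.08, which became -1.04 without vector control 1 and -0.56 without ATM KO 3. It turned positive without vector control 2 or 3 (0.51 each) or ATM KO 2 (0.54). Its 3 most abundant members were the lactate dehydrogenase gene Ldha (log2 -0.15, SE 0.30), Ndrg1 (-0.10, SE 1.22) and the collagen hydroxylase gene P4ha1 (-0.23, SE 0.82). limma, edgeR and DESeq2 called 0 of the 12, against 0%, 0% and 0.691% of all genes. Each had 0 at an unadjusted p under 0.05, against 4.16%, 4.3% and 5.9% of all genes. Vector control 1 was over 2-fold from the other controls in 11 of the 12, all lower there, against 28.7% of all genes in either direction.

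**Figure D3:**
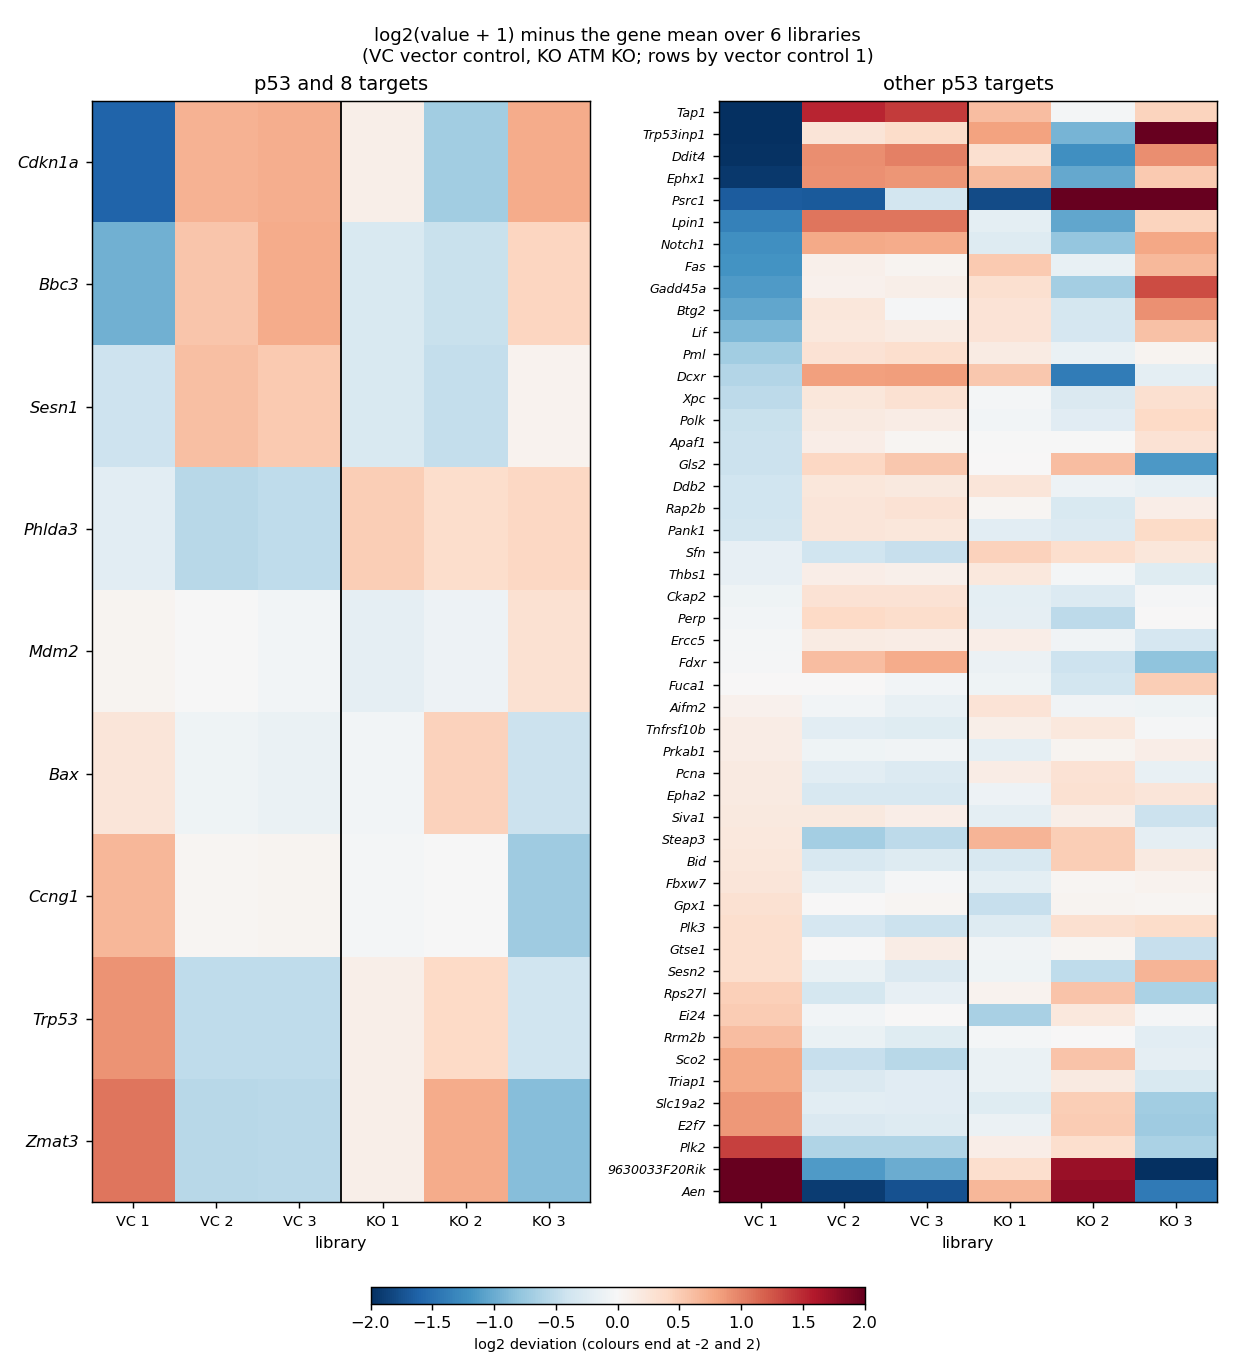
Log2(value + 1) minus the gene's mean over the 6 libraries, for Trp53 and 8 targets (left) and 50 other p53 targets (right), with rows ordered by vector control 1 and colours ending at -2 and 2. Vector control 1 and ATM KO 2 share colours in most of the rows at the top and bottom, so that targets are split between both directions within each group.

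Over genes, levels were compared per length, as normalised count per kb of annotated exon. Bax and Ccng1 stood highest in the controls (848 ± 126 and 829 ± 219), and their ranges overlapped. Mdm2 followed at 481 ± 18.4 and did not overlap Ccng1 above it or Cdkn1a below it. Cdkn1a (252 ± 158), Trp53 (203 ± 125), Sesn1 (179 ± 61.0), Bbc3 (154 ± 78.3), Phlda3 (148 ± 20.1) and Zmat3 (135 ± 95.4) came next, and each overlapped its neighbour in that order. In ATM KO cells Phlda3 (265 ± 14.2) moved from the eighth to the fourth place, above Cdkn1a (238 ± 112). The length counts the exons of all transcripts, so genes with long alternative ends, such as Zmat3 with 11435 bases, come out low.

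**Figure D4:**
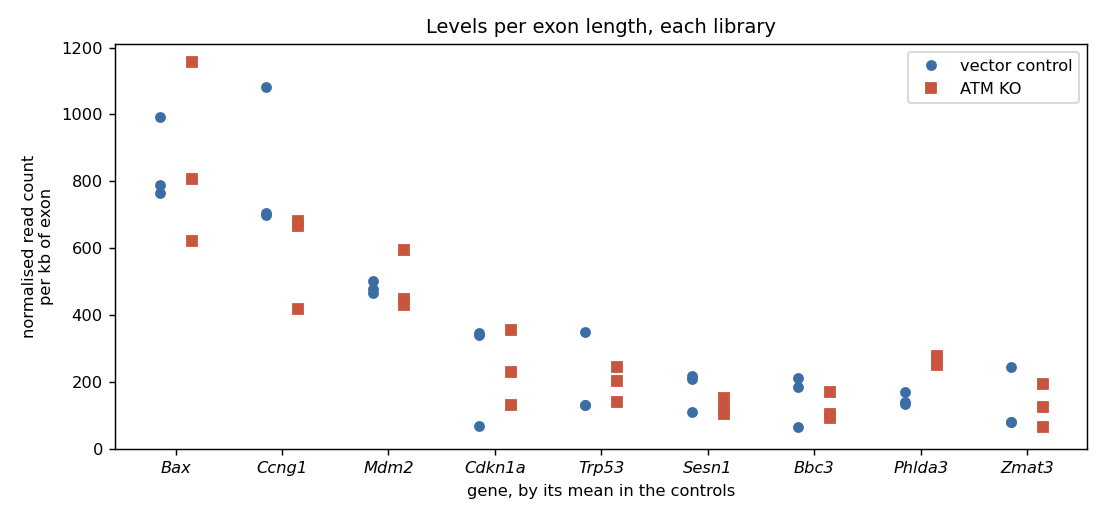
Normalised read count per kb of annotated exon (linear axis from 0) in each library, blue circles for vector control and red squares for ATM KO, ordered by the control mean. Bax and Ccng1 lie highest in the controls, and Mdm2 forms a narrow group between 429 and 595. In ATM KO cells Ccng1 (418 to 681) overlaps Mdm2. The remaining genes lie at or below 354.

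The wider set of p53 targets was split in the same way. Of 56 further targets named, 52 were listed and 51 tested, with 26 positive and 25 negative log2 fold changes and a median of 0.02. limma and edgeR called 0 of the 51, and DESeq2 called 1, Sfn, against 0.691% of all genes. At an unadjusted p under 0.05 they had 2, 3 and 4, against 4.16%, 4.3% and 5.9% of all genes. The groups of Sfn did not overlap, with ATM KO higher (5.7% of all genes). Those of Fdxr and Siva1 did not overlap either, with ATM KO lower (5.48% of all genes). Vector control 1 was over 2-fold from the other controls in 19 of the 51, against 28.7% of all genes, with 7 higher and 12 lower there.

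Among arrest and repair targets (17 tested, 8 positive, median log2 -0.01), Sfn encodes 14-3-3 sigma, which holds cyclin B and Cdk1 in the cytoplasm. Sfn stood at 998, 851 and 815 in controls and 1533, 1406 and 1305 in ATM KO cells, with no overlap. Its log2 fold change was 0.67 (SE 0.17), with a limma adjusted p of 0.999 and a DESeq2 adjusted p of 0.0245, and the DESeq2 call was lost when any 1 library other than vector control 1 was left out (adjusted p from 0.0584 to 0.9999). Of the most abundant members, the kinase gene Plk2 stood at 9052 in vector control 1 and 2313 and 2327 in the other controls (log2 -0.11, SE 0.58). The replication clamp gene Pcna had a log2 fold change of 0.20 (SE 0.19) and the spindle gene Ckap2 one of -0.33 (SE 0.17). Gadd45a, a stress sensor gene picked with its values in view, stood at 423, 984 and 1001 in controls and 1153, 580 and 2283 in ATM KO cells, low in the same 2 libraries as Cdkn1a.

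Among apoptosis targets (12 tested, 8 positive, median log2 0.19), limma, edgeR and DESeq2 called 0. Each had 0 at an unadjusted p under 0.05. Over all genes, 0%, 0% and 0.691% were called, and 4.16%, 4.3% and 5.9% had such a p. Siva1 alone did not overlap between groups, with ATM KO lower (5.48% of all genes). The median was 0.081 without vector control 3, 0.086 without ATM KO 2 and 0.098 without vector control 2. The membrane protein gene Perp was the most abundant (log2 -0.46, SE 0.20), followed by Ei24 (-0.31, SE 0.27) and the BH3 domain gene Bid (0.23, SE 0.26). The nuclease gene Aen and the autophagy gene Trp53inp1, both named after their values were seen, had the widest control ranges of this list. Aen stood at 2153, 92.9 and 104 in controls and 555, 1215 and 131 in ATM KO cells. Trp53inp1 stood at 42.8, 401 and 430 in controls and 586, 175 and 1822 in ATM KO cells. Vector control 1 and ATM KO 2 were the highest libraries for Aen and the lowest for Trp53inp1. Each gene therefore spread further within either group than between them.

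Metabolic and signalling targets (22 tested, 10 positive, median log2 -0.02) also had 0 calls by limma, edgeR and DESeq2. Those called 0%, 0% and 0.691% of all genes. At an unadjusted p under 0.05 were 1, 1 and 2 of the 22, against 4.16%, 4.3% and 5.9% of all genes. The most abundant were the matrix protein gene Thbs1 (log2 -0.05, SE 0.17), the mTORC1 inhibitor gene Ddit4 (0.02, SE 0.94) and the receptor gene Epha2 (0.30, SE 0.20). Ddit4, which hypoxia also induces, stood at 2674, 20131 and 21293 in controls and 13188, 4498 and 20165 in ATM KO cells. 9630033F20Rik, the earlier symbol of Tigar, a fructose bisphosphatase gene also picked with its values in view, stood at 1265, 128 and 140 in controls and 352, 933 and 64.0 in ATM KO cells. Sesn2, the relative of Sesn1, stood at 310, 224 and 202 in controls and 231, 173 and 395 with ATM KO, and did not share its pattern.

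Genes that act on p53 were measured as a list too. Of 30 relatives and regulators, 28 were listed and tested, with 10 positive and 18 negative log2 fold changes and a median of -0.06. No regulator had groups free of overlap, against 11.2% of all genes. limma, edgeR and DESeq2 called 0, against 0%, 0% and 0.691% of all genes. Each had 0 at an unadjusted p under 0.05, against 4.16%, 4.3% and 5.9% of all genes. Vector control 1 was over 2-fold from the other controls in 0 of the 28, against 28.7% of all genes, but shifts below that size were present. Usp7 stood at 14454 there against 8315 and 8061 in the other controls, and Ube4b at 4584 against 7885 and 7913. The Mdm2 deubiquitinase gene Usp7 (log2 -0.16, SE 0.31), the ubiquitin ligase gene Ube4b (0.02, SE 0.29) and the methyltransferase gene Setd7 (-0.02, SE 0.20) were the most abundant. Mdm4, the partner of Mdm2, stood at 1308, 1562 and 1575 in controls and 918, 1231 and 1746 in ATM KO cells. Chek2, whose product is the kinase that ATM activates towards p53, stood at 884, 1134 and 1176 and at 1027, 802 and 933. Trp73 and Cdkn2a were not listed, and Trp63 was low, between 11.6 and 65.3.

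p21 holds down many cell cycle genes through the DREAM repressor complex, and of 21 such genes 19 had negative and 2 positive log2 fold changes, with a median of -0.24 against -0.01 over all genes tested. The median was -0.12 without ATM KO 3 and -0.38 without vector control 1. Of all genes tested, 48.6% were positive. limma, edgeR and DESeq2 called 0 of the 21, against 0%, 0% and 0.691% of all genes. At an unadjusted p under 0.05 they had 2, 2 and 3, against 4.16%, 4.3% and 5.9% of all genes. In 4 of the 21 genes every ATM KO library lay below every control (5.48% of all genes): Ccna2, Plk1, Birc5 and Ect2. The cyclin gene Ccna2 stood at 15670, 16738 and 16533 in controls and 12391, 13359 and 10832 in ATM KO cells (log2 -0.42, SE 0.13, limma adjusted p = 0.999). Top2a (log2 -0.23, SE 0.26) and Mki67 (-0.29, SE 0.24) were the other abundant members.

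The integrated stress response, which shares targets such as Sesn2 with p53, had 9 negative and 2 positive of 11 tested members and a median log2 fold change of -0.50. Of all genes tested, 48.6% were positive. limma, edgeR and DESeq2 called 0 of the 11, against 0%, 0% and 0.691% of all genes. By each, 2 had an unadjusted p under 0.05, against 4.16%, 4.3% and 5.9% of all genes. Its abundant members Psat1 (-0.79, SE 0.36), Asns (-0.94, SE 0.61) and the transcription factor gene Atf4 (-0.57, SE 0.33) had their highest value in vector control 1. Leaving it out brought the median to -0.05, and leaving out vector control 2 or 3 brought it to -0.71 or -0.73. In 3 of the 11, Ddit3, Trib3 and Psat1, all ATM KO libraries were below all controls (5.48% of all genes). Ddit3, a stress-induced transcription factor gene, stood at 288, 573 and 535 in controls and 275, 135 and 259 with ATM KO (log2 -1.06, SE 0.40, limma adjusted p = 0.999), with vector control 1 the lowest control.

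**Figure D5:**
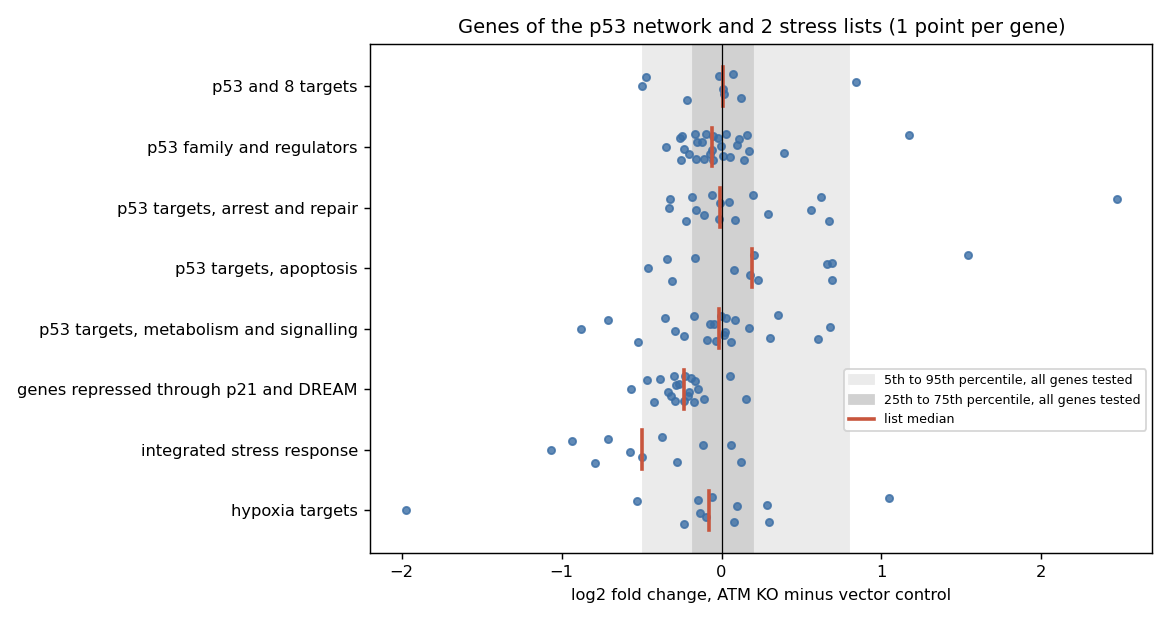
Log2 fold change (ATM KO minus vector control) of each gene in 8 lists, with the list median in red and the middle and outer percentile ranges of all genes tested in grey. The p53 target lists have medians between -0.02 and 0.19, while the genes repressed through p21 and DREAM lie mostly below 0.

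The genes closest to Trp53 over the 6 libraries were Dicer1, Pcgf6 and 2310011J03Rik, by the mean absolute difference of centred log2 values (0.03, 0.03 and 0.04) among 10708 genes. Dicer1, which encodes the ribonuclease that cuts microRNA precursors, stood at 4703, 1861 and 1777 in controls and 2904, 3422 and 1994 in ATM KO cells. For Cdkn1a they were Foxo4, Prss8 and Jak2 (0.04, 0.06 and 0.07). Foxo4, a forkhead transcription factor gene, stood at 434, 2259 and 2260 in controls and 1391, 849 and 2315 in ATM KO cells. Of the 8 other p53 genes, Zmat3 was the nearest to Trp53 (0.18, place 680 of 10708) and Bbc3 the nearest to Cdkn1a (0.30, place 390), while Cdkn1a stood 1.19 from Trp53 (place 10295).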

How the data were processed

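RNA-seq of 6 libraries (3 vector control, 3 ATM KO, grouped by their titles) was analysed. Per the submitters' processing notes, tools were STAR, HTSeq, DESeq2, SAMtools, cutadapt and Trim Galore, and builds GRCm38 and mm9, with neither versions nor roles. What the authors deposited is a normalised signal for each gene. In every library 100% of the values are whole multiples of 1 step within 0.01 reads, so reads could be recovered. Of the IDs, 13249 (98.8%) are in GENCODE M21 (GRCm38), the source of coordinates and exon lengths. limma 3.58.1 (R 4.3.3, moderated by empirical Bayes, with a trend, 2-sided) was the main test, on log2(value + 1) of 12149 genes with a mean of at least 10, Benjamini-Hochberg adjusted over all of them, with a threshold of 0.05. The scale understates changes of low genes. edgeR 4.0.16 (quasi-likelihood), DESeq2 1.42.0 and sva 3.50.0 were alternatives, with other pseudocounts and filters, TMM scaling, a replicate block and each library left out. Scripts were tested on simulated data. Transcript copies were sought with blastn 2.17.0. The p53 genes and all lists were chosen with earlier results of these data known. Beyond the 9 p53 genes, those named are each list's DESeq2 calls and its 3 most abundant members, and the 3 genes nearest to Trp53 and Cdkn1a (mean of at least 50). All others (non-overlapping genes, members of a count, single markers, Sesn2, Mdm4, Chek2, Trp63 and those so marked) were picked after their values were seen.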

Additional observations from a re-analysis of the deposited data

How the results depend on the processing

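The count of genes called was 0 by limma and edgeR, 18 with 1 surrogate variable and 84 by DESeq2. The count of p53 genes called was 0 except for 1 by DESeq2, and leaving out 1 library moved the DESeq2 count between 0 and 2. The median log2 fold change of the 9 genes (0.01) was -0.070 by edgeR and -0.070 by DESeq2, -0.13 without both vector control 1 and ATM KO 2 (chosen after seeing the data, as was DESeq2 with 1 library left out), and between -0.13 and 0.042 with 1 library left out. That of the other p53 targets (0.02) was -0.049 by edgeR, -0.043 by DESeq2 and between -0.018 and 0.058 with 1 library left out, and that of the arrest and repair targets (-0.01) then lay between 0.012 and 0.11. The median of the genes repressed through p21 and DREAM was -0.46 without both libraries.

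Directions turned by edgeR and DESeq2 for Trp53 (-0.055, -0.054), Cdkn1a (-0.096, -0.084), Bax (0.021, 0.025), Zmat3 (-0.070, -0.070) and Ddit4 (-0.23, -0.22). They turned with 1 surrogate variable for Bax (0.014), Ube4b (-0.014), Setd7 (0.0029) and Ddit4 (-0.11), and without both libraries for Cdkn1a (-0.27), Ube4b (-0.075), Setd7 (0.051), Plk2 (0.36) and Ddit4 (-0.34). The cause was not tested. With 1 library left out, log2 fold changes ran from -0.16 to 0.54 for Trp53, -0.65 to 0.51 for Cdkn1a, -0.13 to 0.10 for Mdm2, -0.25 to 0.20 for Bax, -0.75 to 0.10 for Bbc3 and -0.37 to 0.55 for Zmat3. The same ranges were -0.34 to 0.12 for Usp7, -0.24 to 0.19 for Ube4b, -0.12 to 0.15 for Setd7, -0.44 to 0.55 for Plk2, -0.17 to 0.058 for Thbs1, -0.96 to 0.64 for Ddit4, -0.46 to 0.017 for Ldha, -1.46 to 0.59 for Ndrg1 and -1.17 to 0.25 for P4ha1.

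Because every replicate number occurs in both groups, the replicate block cannot change the log2 fold changes (0.01 for the median of the p53 genes). It called 0 genes. After centring each gene within its group, libraries with the same number had correlations of -0.02, -0.58 and 0.53. Vector controls 2 and 3 are near-identical, and their correlations with ATM KO 3 were both 0.53. Whether a number marks a shared batch was therefore not tested by these values. Depth limits Bbc3 most among the p53 genes.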
